A study of Mus musculus with 12 samples.

Results

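The metabotropic glutamate receptor genes Grm2, Grm3, Grm4, Grm5, Grm7 and Grm8 were followed in the striatum and prefrontal cortex of mice that differed in how they drank ethanol. They were read from all probe sets to which the platform annotation gives 1 of these 6 symbols and no other, which came to 9 of the 45037 probe sets tested and 6 of the 18193 genes with a single symbol. Grm7 had 3 probe sets, Grm5 had 2 and the others 1 each, and for each gene the probe set that was brightest on average over all 12 arrays leads. All mice were male Swiss mice, an outbred stock, which from an age of 6 weeks could drink from 3 bottles, 1 with water and the others with ethanol at 5% and 10%, and the labels put the end of the experiment at 22 weeks. All passed through 10 weeks of free choice, 2 weeks without ethanol, 2 weeks of renewed access, 2 weeks with quinine, a bitter substance, at 0.005 g/L in the ethanol, and a closing week (1 week) without quinine. With that week the stages add up to 1 week more than the 16 weeks between the stated ages, and the labels do not resolve this. Mice classed as inflexible drinkers kept to ethanol at every stage, quinine included, and had a mean blood ethanol of 113 ± 11.3 mg/dL. Light drinkers took more water than ethanol and had 48 ± 13.3 mg/dL (kind of error not stated). The 4 groups, with 3 arrays each, were striatum of inflexible drinkers, striatum of light drinkers, prefrontal cortex of inflexible drinkers and prefrontal cortex of light drinkers. A single pool concentration (1 for each group) is written in the labels, so the 3 arrays of a group may be hybridisations of a single pool. Every SD and p-value therefore covers the spread between arrays, which may be technical, and not the spread between mice.

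Metabotropic glutamate receptors are G protein-coupled receptors for glutamate that act more slowly than the ion channel receptors. Group I, here Grm5, couples through Gq to phospholipase C and calcium release and lies mostly on the postsynaptic side, where Homer proteins hold it. Group II (Grm2 and Grm3) and group III (Grm4, Grm7 and Grm8) couple through Gi/o, lower cyclic AMP and, at nerve terminals, restrain transmitter release. Grm3 is also made by astrocytes, Grm2 acts as an autoreceptor of cortical and thalamic glutamate terminals, and Grm5 is abundant in striatal projection neurons.

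Values below are the deposited values, used as log2. Differences are inflexible minus light drinkers or striatum minus prefrontal cortex, given ± SE from limma, and a probe set was called at a Benjamini-Hochberg adjusted p under 0.05 over all 45037 probe sets. The array medians lay between 3.12 and 3.14, and between 22.4% and 25.0% of probe sets per array were above 4, so a level near 3 is at the bottom of the scale. Fold changes near that bottom are understated by this kind of summary, and the levels of different probe sets cannot be set against each other. Spiked hybridisation controls were high on 5 arrays and low on 7. In prefrontal cortex replicate 2 of each drinking class was high. In striatum inflexible replicates 1 and 3 and light replicate 1 were high. The origin of this split is not known. Values with it as a block, or within a part of it, are given beside some of the results. The striatal label was borne out by the markers: 15 of 16 markers of medium spiny neurons, the striatal projection neurons, were higher in striatum than in prefrontal cortex (adjusted p under the threshold, limma), and 0 were lower. Between regions 3.82% of all probe sets were called in either direction.

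The main pattern lay in region and in the prefrontal arrays. Grm5 was higher and Grm2 and Grm3 were lower in striatum than in prefrontal cortex when averaged over drinking class. Within light drinkers 3 of 9 member probe sets, Grm2 and Grm3 among them, passed between regions, where 3.32% of all probe sets did. Within inflexible drinkers 0 of 9 did without the control block, where 0.773% of all did. In the prefrontal cortex of inflexible drinkers Grm2 and Grm3 stood below, and 1 of the 2 Grm5 probe sets above, their levels in light drinkers, with no overlap between the 3 arrays of each class. The same lack of overlap was found for 12.9% of all probe sets. 0 of the 3 prefrontal differences passed the test without the control block, and Grm2 and Grm3 passed with it. Of all probe sets 0.826% passed without the block and 2.48% with it. In striatum 0 of 9 member probe sets passed between the drinking classes, where 0.0111% of all did. Of the 5 group III probe sets 0 passed by class or by region, where 3.82% of all passed between regions averaged over drinking class.

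**Figure D1:**
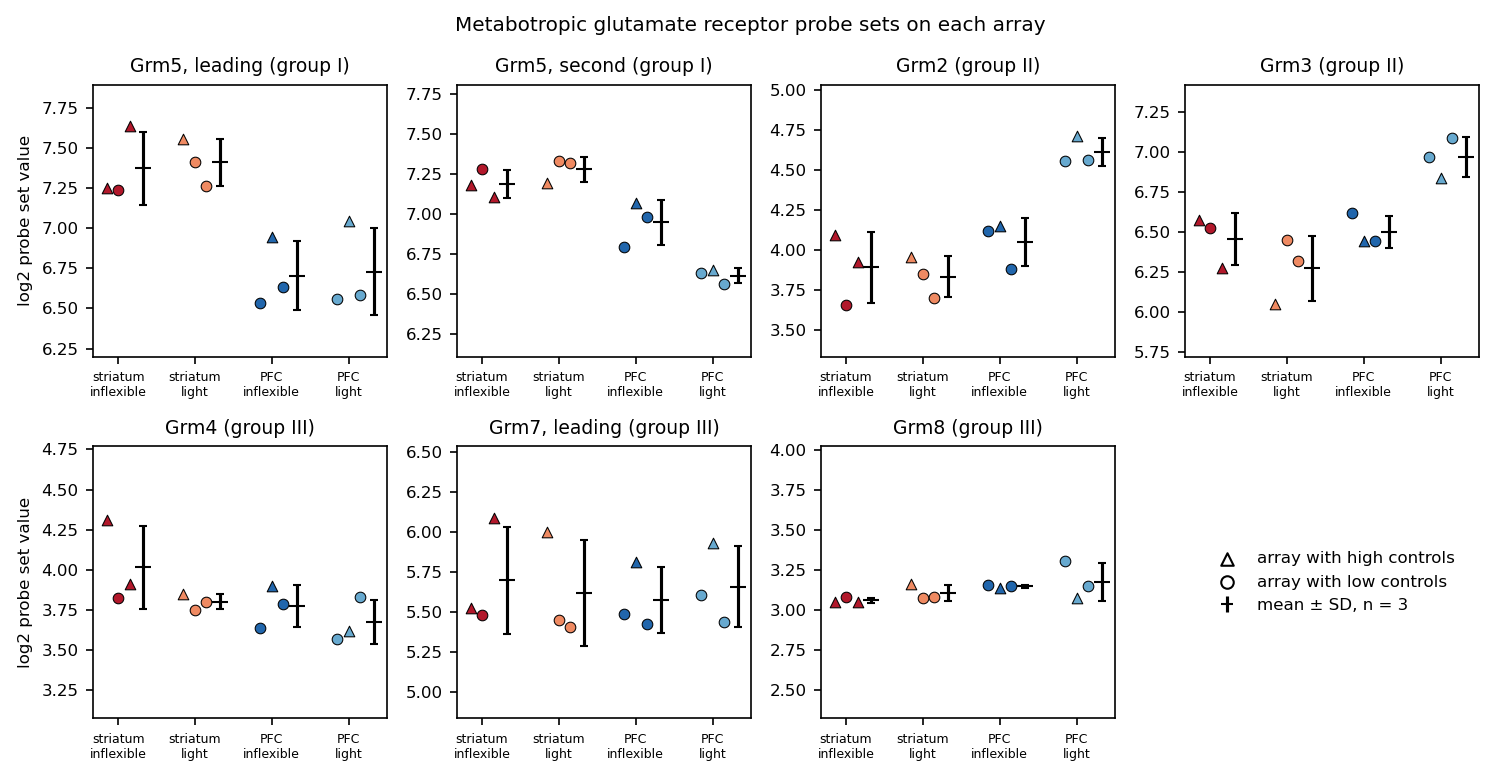
Level of the leading probe set of each receptor gene, and of the second Grm5 probe set, on each of the 12 arrays (y axis, log2 probe set value, every panel spanning the same height). Groups run along the x axis (PFC, prefrontal cortex), triangles mark arrays with high hybridisation controls, and bars are the mean ± SD of 3 arrays. Grm2 and Grm3 are highest in the prefrontal cortex of light drinkers, and both Grm5 probe sets are higher in striatum.

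The group II genes Grm2 and Grm3 were both lower in striatum averaged over drinking class, and for that reason their promoters are shown. Within inflexible drinkers alone neither gene was called between regions. The windows run from 250 bases before to 50 after the RefSeq start (assembly GRCm38.p6, minus strand, 5′ to 3′), at chr9:106656060-106656359 for Grm2 and chr5:9725303-9725602 for Grm3. Capitals mark GGGCGG, the GC box bound by Sp family factors, searched on both strands.
Grm2: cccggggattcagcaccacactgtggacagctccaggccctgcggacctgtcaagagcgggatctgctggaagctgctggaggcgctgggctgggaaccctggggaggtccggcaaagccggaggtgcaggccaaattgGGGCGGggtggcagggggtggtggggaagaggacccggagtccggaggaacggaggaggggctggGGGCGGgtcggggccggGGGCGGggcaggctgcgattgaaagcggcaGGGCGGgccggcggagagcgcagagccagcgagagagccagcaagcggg
Grm3: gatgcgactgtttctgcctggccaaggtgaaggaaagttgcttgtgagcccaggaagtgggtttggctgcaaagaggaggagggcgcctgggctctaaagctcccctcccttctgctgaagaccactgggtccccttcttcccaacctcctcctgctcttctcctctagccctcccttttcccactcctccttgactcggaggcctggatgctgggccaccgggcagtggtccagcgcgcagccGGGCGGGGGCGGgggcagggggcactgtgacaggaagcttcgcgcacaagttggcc
The Grm2 window held 4 GC boxes and the Grm3 window 2, which run into each other without a gap. At least 1 GC box was present in 35.7% of the 32851 promoter windows of the RefSeq table, and 4 or more in 5.49%. G and C made up 72% of the Grm2 window and 63.7% of the Grm3 window, against a median of 52.7% over all windows. The letters TATAAA, held by 13.6% of windows, and TGACG, held by 20.8%, were in neither window on either strand. Both Grm7 windows and 1 of the 3 Grm8 windows also held 1 GC box each. Of the 6 genes 4 were matched in the table, and Grm4 and Grm5 are named only.

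Of the group II genes, Grm2 encodes a receptor that limits glutamate release. In prefrontal cortex its probe set stood at 4.12, 4.15 and 3.88 on the inflexible arrays, against 4.56, 4.71 and 4.57 on the light arrays. Every inflexible array was below every light array. The means were 4.05 ± 0.15 in inflexible drinkers and 4.61 ± 0.09 in light drinkers (SD, n = 3 each), a difference of -0.56 ± 0.12 or 1.47-fold lower in inflexible drinkers (95% interval -0.82 to -0.30), with an adjusted p = 0.075. In striatum Grm2 stood at 4.10, 3.66 and 3.93 in inflexible drinkers, against 3.96, 3.85 and 3.70 in light drinkers. The classes overlapped there, and the difference was 0.06 ± 0.12 (95% interval -0.20 to 0.32, adjusted p = 1). Both striatal means of Grm2 (3.89 ± 0.22 in inflexible drinkers and 3.84 ± 0.13 in light drinkers) were under 4, near the bottom of the scale, so a class difference in striatum may not be detectable and a difference between regions may be understated.

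Grm3, the other group II receptor, responds to glutamate and to the peptide NAAG. In prefrontal cortex its levels were 6.61, 6.44 and 6.44 in inflexible drinkers, against 6.97, 6.84 and 7.09 in light drinkers. Again the arrays of the classes did not overlap. The means were 6.50 ± 0.10 in inflexible drinkers and 6.96 ± 0.13 in light drinkers (SD, n = 3 each), a difference of -0.46 ± 0.12 or 1.38-fold lower in inflexible drinkers (95% interval -0.72 to -0.21), with an adjusted p = 0.152. In striatum the levels were 6.57, 6.52 and 6.27 in inflexible drinkers, against 6.05, 6.45 and 6.32 in light drinkers. These overlapped, and the difference was 0.18 ± 0.12 (95% interval -0.07 to 0.44, adjusted p = 1).

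Over all prefrontal arrays 0 of 9 member probe sets were called between the drinking classes, where 0.826% of all probe sets were, and 3 had an unadjusted p under 0.05, where 7.61% of all did. Arrays of the classes did not overlap for 3 of the 9, against 12.9% of all probe sets. With the control split as a block, 2 of 9 were called, where 2.48% of all were: Grm2 (-0.56 ± 0.08, adjusted p = 0.00691) and Grm3 (-0.46 ± 0.09, adjusted p = 0.0322). The block left the prefrontal differences as they were, since high controls were found on 1 array of either class, and the errors of Grm2 and Grm3 were smaller with it. Among the 7 arrays with low controls the differences were -0.56 ± 0.09 for Grm2 (adjusted p = 0.0592) and -0.50 ± 0.08 for Grm3 (adjusted p = 0.0584). On the high-control arrays, with 1 prefrontal array in each class, they were -0.56 for Grm2 and -0.39 for Grm3. A fit of the prefrontal arrays alone with the replicate number as a block, chosen after the data were seen, called Grm2 (adjusted p = 0.0362) and not Grm3 (0.0653). In these arrays the replicate block also takes up the control split, so it is no separate evidence of paired samples. With array weights both were called (adjusted p = 0.00229 for Grm2 and 0.00292 for Grm3). Array weights count arrays far from their group less, and that fit also called 2955 probe sets in all, against 372 without weights.

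Between the regions, averaged over drinking class, Grm2 was lower in striatum (3.86 in striatum and 4.33 in prefrontal cortex, difference -0.47 ± 0.08, adjusted p = 0.0112) and so was Grm3 (6.36 in striatum and 6.73 in prefrontal cortex, difference -0.37 ± 0.08, adjusted p = 0.0366). These were 2 of the 4 member probe sets of 9 called between regions, where 3.82% of all probe sets were, and with the control block 4 were called too, where 8% of all were. The values were further apart in light than in inflexible drinkers. In light drinkers striatum stood -0.78 ± 0.12 from prefrontal cortex for Grm2 (adjusted p = 0.00497) and -0.69 ± 0.12 for Grm3 (adjusted p = 0.00909), 2 of the 3 member probe sets of 9 called there, where 3.32% of all were. In inflexible drinkers the same differences were -0.16 ± 0.12 for Grm2 (95% interval -0.42 to 0.10, adjusted p = 0.946) and -0.04 ± 0.12 for Grm3 (95% interval -0.30 to 0.21, adjusted p = 1, and 0.016 with the control block), and 0 of 9 member probe sets were called, where 0.773% of all were. Arrays of the regions did not overlap for 4 of the 9 in light drinkers, where 16.3% of all did not, and for 3 of the 9 in inflexible drinkers, where 11.5% of all did not. The order of the group means was the same for both genes: prefrontal cortex of light drinkers, then prefrontal cortex of inflexible drinkers, striatum of inflexible drinkers and striatum of light drinkers. Only the first step, between the prefrontal groups, had no overlap of arrays. The prefrontal arrays of light drinkers enter both this comparison and that of the drinking classes. The Grm3 region call was kept only without prefrontal light replicate 2, striatal inflexible replicate 1 or striatal light replicate 2, and lost without each of the other 9 arrays (adjusted p up to 0.095) and among the arrays with low controls (-0.32 ± 0.06, adjusted p = 0.0573). Grm2 kept its region call without each of the 12 arrays (adjusted p at most 0.0348) and among the arrays with low controls (-0.57 ± 0.07, adjusted p = 0.0169). Within the high-control arrays, where each prefrontal group had 1 array and 1 residual degree of freedom remained, 0 of the 45037 probe sets were called, and the differences were -0.45 for Grm2 and -0.40 for Grm3.

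Grm5, the group I member, encodes the postsynaptic receptor that Homer proteins link to internal calcium stores. Its leading probe set stood at 7.25, 7.24 and 7.64 in striatum of inflexible drinkers and 7.56, 7.41 and 7.27 in striatum of light drinkers. In prefrontal cortex it stood at 6.54, 6.95 and 6.63 in inflexible drinkers and 6.56, 7.04 and 6.59 in light drinkers. All 6 striatal arrays were above all 6 prefrontal arrays. The regions did not overlap, in either direction, for 2.64% of all probe sets. The second Grm5 probe set showed the same split, with 7.18, 7.28 and 7.11 in striatum of inflexible drinkers, 7.19, 7.33 and 7.32 in striatum of light drinkers, 6.79, 7.07 and 6.98 in prefrontal cortex of inflexible drinkers and 6.63, 6.65 and 6.56 in prefrontal cortex of light drinkers. Both were called between regions: the leading one was higher in striatum by 0.68 ± 0.12 or 1.60-fold (adjusted p = 0.00975) and the second by 0.45 ± 0.05 or 1.37-fold (adjusted p = 0.000838). Among the arrays with low controls the leading probe set was 0.71 ± 0.05 higher (adjusted p = 0.00319) and the second 0.56 ± 0.05 higher (adjusted p = 0.00781). With the control block the leading one was 0.62 ± 0.07 and the second 0.45 ± 0.05 higher. On the high-control arrays, with 1 prefrontal array in each class, the leading one was 0.51 and the second 0.31 higher.

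The 2 Grm5 probe sets disagreed on drinking class in prefrontal cortex. The second stood at 6.95 ± 0.14 in inflexible drinkers and 6.61 ± 0.05 in light drinkers (SD, n = 3 each) with no overlap, a difference of 0.33 ± 0.07 (95% interval 0.17 to 0.50, adjusted p = 0.0893, and 0.0585 with the control block). The leading one stood at 6.71 ± 0.21 in inflexible drinkers and 6.73 ± 0.27 in light drinkers, with overlap, and a difference of -0.03 ± 0.16 (95% interval -0.39 to 0.34, adjusted p = 1). The leading probe set moved with the controls: its highest prefrontal array in each class was the 1 with high controls. The second was called without inflexible replicate 1 (0.41, adjusted p = 0.035) and with array weights (adjusted p = 0.00454). In striatum the class differences were -0.04 ± 0.16 for the leading and -0.09 ± 0.07 for the second probe set (adjusted p = 1 each). Within the drinking classes, the striatal excess of the second probe set was 0.24 ± 0.07 in inflexible drinkers (adjusted p = 0.308) and 0.67 ± 0.07 in light drinkers (adjusted p = 0.000736). That of the leading one was 0.67 ± 0.16 in inflexible drinkers (adjusted p = 0.154) and 0.68 ± 0.16 in light drinkers (adjusted p = 0.0606). With the control block the leading one was called in inflexible drinkers (adjusted p = 0.024) and in light drinkers (adjusted p = 0.00288). The second was called with it in light drinkers (adjusted p = 0.000719) and not in inflexible drinkers (0.24 ± 0.08, adjusted p = 0.186).

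**Figure D2:**
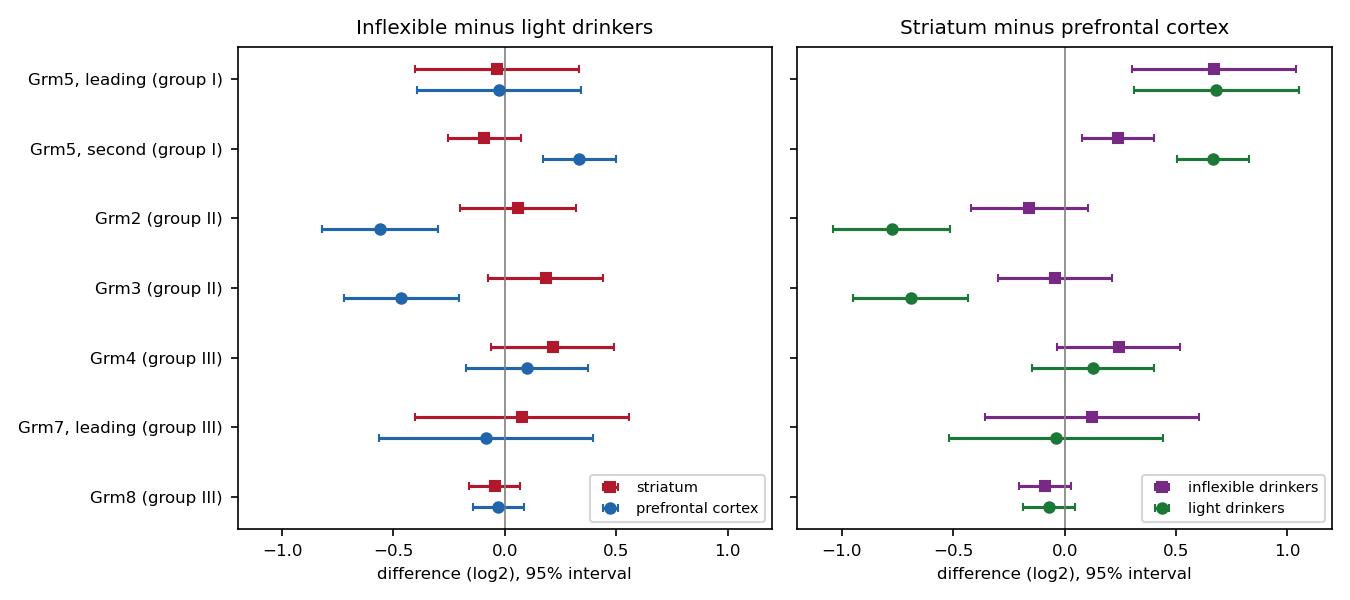
Difference of each receptor probe set with its 95% interval from limma (x axis, log2), for inflexible minus light drinkers in each region (left panel) and for striatum minus prefrontal cortex in each drinking class (right panel). Grm2 and Grm3 lie to the left of 0 in prefrontal cortex between classes and in light drinkers between regions, while their intervals in the other 2 comparisons include 0. The leading Grm5 probe set stands at 0.67 in inflexible and 0.68 in light drinkers between regions.

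The group III receptors sit mainly at the release site of nerve terminals. Grm7, whose product has a low affinity for glutamate, was the only 1 of them with a leading probe set above 4. It stood at 5.53, 5.48 and 6.09 in striatum of inflexible drinkers, against 6.00, 5.45 and 5.41 in striatum of light drinkers. In prefrontal cortex it stood at 5.49, 5.81 and 5.43 in inflexible drinkers, against 5.61, 5.94 and 5.44 in light drinkers. The highest array of every group was 1 with high controls. Class differences were 0.08 ± 0.21 in striatum (95% interval -0.40 to 0.56) and -0.09 ± 0.21 in prefrontal cortex (95% interval -0.57 to 0.39), each with an adjusted p = 1. The region difference was 0.04 ± 0.15 (95% interval -0.30 to 0.38, adjusted p = 0.972). The other 2 Grm7 probe sets lay between 2.90 and 3.37 on all arrays, at the bottom of the scale.

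Grm4 lay between 3.57 and 4.31 over the 12 arrays. Its striatal levels were 4.31, 3.82 and 3.91 in inflexible drinkers, against 3.85, 3.75 and 3.80 in light drinkers, and inflexible replicate 1 was the single array above 4. The class difference was 0.21 ± 0.12 in striatum (95% interval -0.06 to 0.49, adjusted p = 1) and 0.10 ± 0.12 in prefrontal cortex (95% interval -0.17 to 0.37, adjusted p = 0.999), and the region difference 0.19 ± 0.09 (adjusted p = 0.442). Without that array the striatal class difference was 0.07. Grm8 lay between 3.05 and 3.31, again at the bottom of the scale, with class differences of -0.05 ± 0.05 in striatum and -0.03 ± 0.05 in prefrontal cortex and a region difference of -0.08 ± 0.04 (adjusted p = 0.421). For both genes every neighbouring pair in the order of the 4 group means overlapped. Further apart in that order, Grm8 stood at 3.05, 3.08 and 3.05 in striatum of inflexible drinkers, against 3.15, 3.14 and 3.15 in their prefrontal cortex, with no overlap and a difference of -0.09 ± 0.05 (adjusted p = 0.853). At these levels a difference in Grm4 or Grm8 may not be detectable with these arrays.

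In striatum 0 of 9 member probe sets were called between the drinking classes, where 0.0111% of all probe sets were, and 0 had an unadjusted p under 0.05 in limma, where 3.53% of all did. Arrays of the classes stood apart for 0 of the 9, where 7.84% of all probe sets did. With the control block 0 of 9 were called too, where 0.0755% of all were. For the difference between the class effects of the 2 regions, 0 of 9 members were called, where 0.313% of all probe sets were, and 3 had an unadjusted p under 0.05, where 5.62% of all did. The same contrast compares the region differences of the 2 classes. The striatal minus the prefrontal difference was 0.62 ± 0.16 for Grm2 (adjusted p = 0.296), 0.65 ± 0.16 for Grm3 (adjusted p = 0.252) and -0.43 ± 0.10 for the second Grm5 probe set (adjusted p = 0.215). With the control block Grm3 was called (0.71 ± 0.13, adjusted p = 0.0433), where 0.984% of all probe sets were, and Grm2 was not (0.55 ± 0.11, adjusted p = 0.0638).

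Markers of other cells and tissue moved with drinking class in the same prefrontal samples. Counts are without the control block unless stated. Of all probe sets 0.826% were called between the classes in prefrontal cortex without it and 2.48% with it. Of the 16 measured medium spiny neuron markers 7 rose and 0 fell in inflexible drinkers, and 8 rose and 1 fell with the control block. Their median difference was 0.79, against 0.0018 over all named genes. Their summed linear level was 858 to 869 in inflexible drinkers against 506 to 532 in light drinkers. Of the 11 oligodendrocyte and myelin markers 6 rose and 0 fell (median 0.99), and 10 rose and 0 fell with the control block. Their sums were 1534 to 2120 in inflexible drinkers against 647 to 985 in light drinkers. Ttr, the thyroid hormone carrier of the choroid plexus, was the 1 of 10 choroid plexus and ependyma markers that rose, and 3 rose with the control block. The sums of that list were 1326 to 2189 in inflexible drinkers against 93.2 to 96.0 in light drinkers. Only 1 of the 10 had a mean of at least 4 and the list median was 0.24, so these sums do not stand for the list as a whole. Of the 14 cortical excitatory neuron markers 1 rose and 0 fell (median -0.24), and 1 rose and 2 fell with the control block. Their sums overlapped (844 to 1356 in inflexible drinkers, 1103 to 1669 in light drinkers). Within each part of the control split their mean log2 level was lower in inflexible drinkers. On low-control arrays it was 5.36 and 5.32 in inflexible drinkers, against 5.62 and 5.57 in light drinkers. On high-control arrays it was 5.69 in inflexible drinkers, against 5.87 in light drinkers. Interneuron markers had 2 of 12 lower, with sums of 1045 to 1098 in inflexible drinkers against 1172 to 1263 in light drinkers. Of the olfactory bulb and neuroblast markers 3 of 8 were lower, and 4 with the control block (sums 124 to 137 in inflexible drinkers, 187 to 194 in light drinkers). Of the 12 astrocyte markers, which bear on Grm3, 0 were called and the sums overlapped (1966 to 2220 in inflexible drinkers, 1852 to 2133 in light drinkers). For microglia 1 of 9 fell (sums 294 to 335 in inflexible and 352 to 388 in light drinkers), for thalamus and septum 1 of 10 rose (190.4 to 196 in inflexible and 195 to 200.1 in light drinkers), and of 8 vascular (163 to 180.4 in inflexible and 180.0 to 202 in light drinkers) and 6 oligodendrocyte precursor markers (146 to 152 in inflexible and 139 to 149.9 in light drinkers) 0 were called. With the control block the counts for interneurons, astrocytes, microglia, vascular cells and oligodendrocyte precursors stayed the same. For thalamus and septum 1 rose and 1 fell with it. The part of all these markers in the receptor differences was not tested. Between regions 15 of 16 medium spiny neuron and 11 of 11 myelin markers were higher in striatum, and of the cortical excitatory markers 1 of 14 was higher and 5 lower, beside the region calls of Grm5, Grm2 and Grm3. Of all probe sets 3.82% were called between regions. Fewer cells of a type and less RNA per cell cannot be told apart in such tissue samples. In striatum 0 members of these lists were called between the classes without the control block, where 0.0111% of all probe sets were. With it 1 medium spiny neuron and 1 cortical excitatory marker rose, where 0.0755% of all were called. The medium spiny neuron median was 0.47, and its sums did not overlap (2398 to 2646 in inflexible drinkers, 1738 to 1918 in light drinkers). Interneuron sums did not overlap either (1040 to 1174 in inflexible drinkers, 870 to 961 in light drinkers). Thalamus and septum sums were apart in the other direction (175 to 186 in inflexible drinkers, 208 to 223 in light drinkers).

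**Figure D3:**
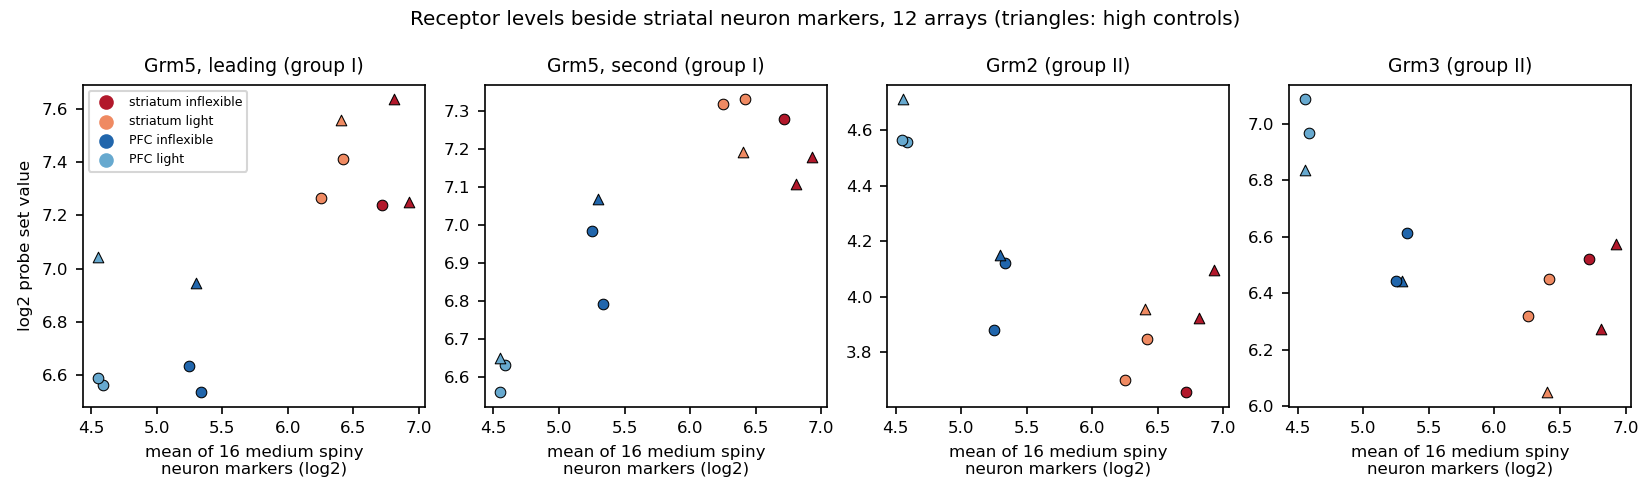
Level of the Grm5, Grm2 and Grm3 probe sets (y axis, log2) against the mean of the 16 medium spiny neuron markers (x axis, log2) on each of the 12 arrays, coloured by group, with triangles for high hybridisation controls. The prefrontal arrays of inflexible drinkers lie between those of light drinkers and the striatal arrays on the x axis, and close to the striatal arrays on the y axis for Grm2 and Grm3.

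Genes whose level over the 12 arrays was most like that of each receptor were taken from 3272 or 3273 genes with a mean of at least 5. The 12 points of each Pearson r share the region, the drinking class and the control split, so these values are a description. Nearest to Grm2 were Camk2n2, an inhibitor of CaM kinase II (r = 0.93), Tspan5 (0.92) and Rapgef1 (0.92). Nearest to Grm3 were the kinase gene Mark1 (r = 0.96), Wsb2 (0.95) and Zfp365 (0.93). The second Grm5 probe set was most like Bcl11b, a transcription factor of striatal and deep cortical neurons (r = 0.95), Kcnab1, a potassium channel subunit (0.95), and Car2, a carbonic anhydrase (0.94). The leading Grm5 probe set was most like Ivns1abp, Tmem158 and Strn (r = 0.92 each). Grm7 was most like Zbtb11 (0.98), the chromatin remodeller gene Atrx (0.98) and Vcpip1 (0.97). Grm4 (0.91 with Sfxn1, 0.82 with Pgrmc2, 0.79 with Trnp1) and Grm8 (0.77 with Higd1a, 0.76 with Bag1 and with Klf12) had no match as close.

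The signalling genes around the receptors were counted in 5 lists. Between the drinking classes, 0 genes of any list were called in either region. In prefrontal cortex the list medians were -0.02 for group I signalling (11 genes), -0.19 for Homer and the postsynaptic scaffold (7), -0.09 for receptor partners (17), -0.14 for Gi/o signalling (20) and -0.0027 for supply and clearance of glutamate and NAAG (14), beside 0.0018 over all named genes. The smallest p in the group I list belonged to Plcb1, the phospholipase C of the Gq pathway, at 7.22 in inflexible and 6.58 in light drinkers (0.63 ± 0.13, adjusted p = 0.0693). With the control block it was called (adjusted p = 0.0119). So were 2 genes named after their values were seen: Dgkz, a kinase that removes diacylglycerol (-0.52 ± 0.11, adjusted p = 0.0489), and Kcnj9, a Gi/o-gated potassium channel subunit (-0.55 ± 0.10, adjusted p = 0.0255). With that block 1 of the 11 group I genes rose and 1 fell, and 1 of the 20 Gi/o genes fell. In the remaining lists 0 were called with it, where 2.48% of all probe sets were. Slc1a3, the astrocytic glutamate transporter, averaged 6.88 in inflexible drinkers and 7.32 in light drinkers (-0.45 ± 0.11, adjusted p = 0.157). Homer1, the scaffold of Grm5, averaged 7.12 in inflexible drinkers and 7.37 in light drinkers (-0.25 ± 0.11, adjusted p = 0.633). Ppp1cc, a protein phosphatase subunit, had the smallest p of the partners at 8.22 in inflexible and 8.05 in light drinkers (0.17 ± 0.07, adjusted p = 0.651). Elfn1, a synaptic organiser that binds group III receptors, averaged 3.70 in inflexible drinkers and 3.80 in light drinkers (-0.11 ± 0.06, adjusted p = 0.828). In the Gi/o list Adcy2, an adenylyl cyclase, had the smallest p (-0.44 ± 0.14, adjusted p = 0.307).

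In striatum the list medians between the classes were -0.13 for group I signalling, 0.06 for Homer and scaffold, 0.01 for partners, 0.03 for Gi/o signalling and 0.02 for supply and clearance. The smallest p in the group I list was that of Gnaq, the Gq alpha subunit, at 6.95 in inflexible and 7.27 in light drinkers (-0.32 ± 0.08, adjusted p = 0.724). Between regions some of these genes were called, where 3.82% of all probe sets were, against 0.826% between the classes in prefrontal cortex and 0.0111% in striatum. Of the Gi/o list 1 rose and 5 fell in striatum (median -0.10): Adcy5, the main adenylyl cyclase of striatal projection neurons and also a member of the medium spiny neuron list, was higher (6.69 in striatum and 5.03 in prefrontal cortex, 1.66 ± 0.13, adjusted p = 8.54e-05). The G protein regulators Rgs4 (-0.66 ± 0.06, adjusted p = 0.000132) and Rgs7 (-0.49 ± 0.07, adjusted p = 0.00335) and Adcy2 (-0.74 ± 0.10, adjusted p = 0.0019) were lower, with the calcium channel gene Cacna1b and the potassium channel gene Kcnj3. Plcb4, the 1 called gene of the group I list, was lower in striatum (4.29 in striatum and 5.44 in prefrontal cortex, -1.14 ± 0.12, adjusted p = 0.000653). Elfn1, the 1 called partner, was lower (-0.25 ± 0.04, adjusted p = 0.00995), at a level under 4 in both regions. Of the supply and clearance list 3 of 14 were lower: the glutamine carriers Slc38a1 (-0.19 ± 0.04, adjusted p = 0.0149) and Slc38a2 (-0.44 ± 0.10, adjusted p = 0.0319) and Slc1a3 (-0.33 ± 0.08, adjusted p = 0.0496). Of the 7 Homer and scaffold genes 0 were called between regions, and Homer1 (-0.26 ± 0.08, adjusted p = 0.118, and 0.0288 with the control block) and Homer2 (-0.27 ± 0.07, adjusted p = 0.087, and 0.0385 with the control block) were called lower with that block only. With that block 8% of all probe sets were called between regions. In the group I list 1 then rose and 2 fell, and among the partners 2 rose and 1 fell. In the Gi/o list 3 rose and 6 fell, and in supply and clearance 0 rose and 4 fell.

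**Figure D4:**
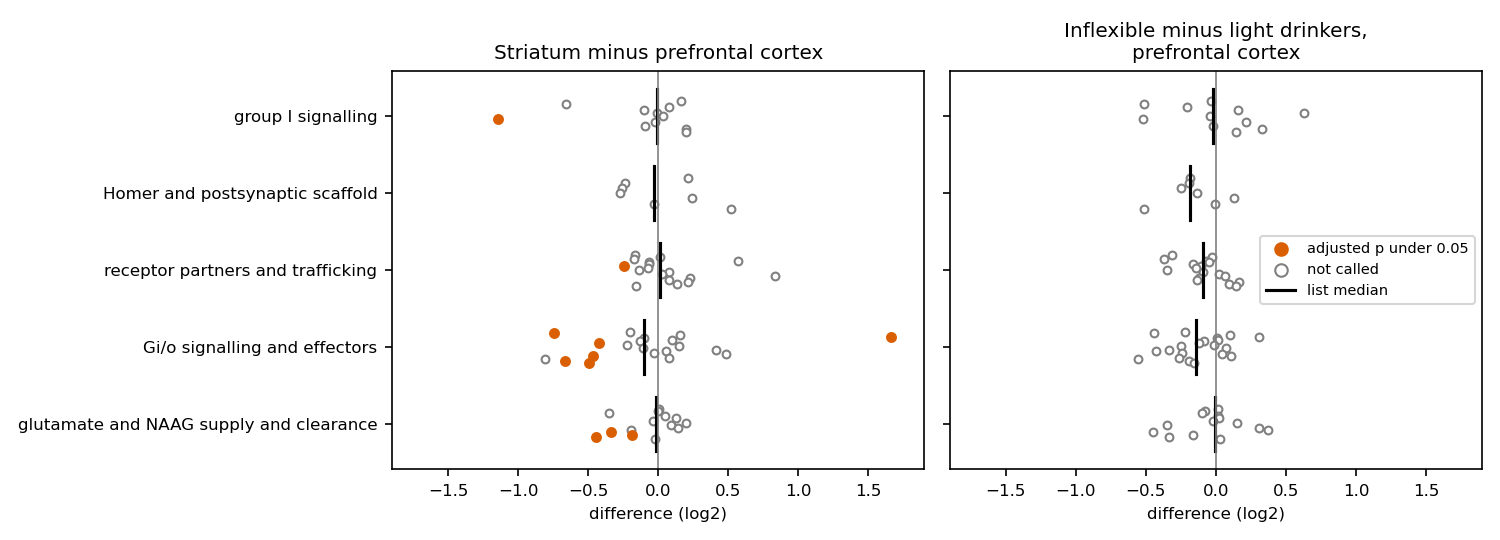
Difference of each gene of the 5 pathway lists (x axis, log2), for striatum minus prefrontal cortex (left panel) and for inflexible minus light drinkers in prefrontal cortex (right panel). Filled points passed an adjusted p under 0.05 in limma and bars are list medians; 11 filled points stand in the left panel and 0 in the right.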

How the data were processed

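Total RNA of whole striatum and prefrontal cortex, extracted with TRIzol per the labels' protocols, was measured on 12 biotin-labelled 1-colour arrays. Per the submitters' processing notes RMA and affy were used, with no version given. The values that the authors deposited, 1 per probe set and array, were taken as log2, a base read from their range. Of 45101 probe sets 64 controls were left out. Symbols came from the platform annotation (34945 probe sets with 1, 932 with several, 9160 with none), and the 6 member gene IDs matched RefSeq. The number of columns left unmapped was 0. A limma 3.58.1 model in R 4.3.3 with 4 group means covered all arrays and left 8 residual degrees of freedom. Tests were two-sided with Benjamini-Hochberg adjustment, and the procedure was tested on simulated data. Figures used Python 3.11.15 and matplotlib 3.10.9. The number of arrays limits the precision.

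The members, gene lists and tests were chosen with earlier results of these data known. Named genes were all members, the 3 genes most like each, and from each pathway list the called genes or those with the smallest p. Alternatives covered normalisation, a filter at a mean of 4, replicate and control blocks, each part of the control split (the widest gap in the mean of 18 control probe sets), array weights, a variance trend, probe set means and leaving out each array. Arrays with the same replicate number deviated together in prefrontal cortex (r = 0.74, 0.85 and 0.62 over 10852 probe sets) and not in every pair in striatum (0.25, 0.26 and -0.64) or between regions. For that reason the replicate number was also used as a block on the prefrontal arrays alone. There replicate 2 of each class was the array with high controls. These r values therefore cannot tell a pairing of samples from the control split.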

Additional observations from a re-analysis of the deposited data

How the results depend on the processing

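Of the values recomputed under 15 alternative settings, 261 kept their direction and their side of the threshold, 12 lost and 10 gained a call and 20 turned their sign. Over single arrays left out the numbers were 216, 9, 1 and 26. Members called in prefrontal cortex numbered 0, against 2 with the control block, 3 with array weights, 1 in prefrontal arrays alone with the replicate block, and 0 to 1 without single arrays (1 without inflexible replicate 1). Of all 45037 probe sets 372 were called in prefrontal cortex, against 1119 with the control block and 2955 with array weights. They numbered 899 in prefrontal arrays alone with the replicate block and 193 without inflexible replicate 1. The class effects differed between regions for 0 members, against 1 with the control block and 3 with array weights. For that contrast 141 of all probe sets were called, against 443 with the control block and 800 with array weights. Between regions 4 were called, against 0 on high-control arrays, 0 in inflexible drinkers, and 3 to 4 without single arrays. Of all probe sets 1720 were called between regions, and 348 in inflexible drinkers. In striatum 0 members were called between the classes, where 5 of all probe sets were. With the replicate block over all arrays, Grm3 lost its region call (adjusted p = 0.0967), as it did with a variance trend (0.0872), and prefrontal calls stayed at 0. In the rest of this paragraph the single values are log2 differences that turned their sign, 0 of them called in either setting. For single arrays left out the lowest and highest difference are given, which lie on either side of 0. For Grm5 these were 0.013 (quantile normalisation), 0.0061 (array weights) and -0.17 to 0.11 (single arrays left out) for the difference between regions in the class effect; 0.011 (low-control arrays), 0.023 (array weights), 0.15 (mean of its probe sets) and -0.15 to 0.13 (single arrays) in prefrontal cortex; and 0.029 (array weights) and -0.17 to 0.037 (single arrays) in striatum. For Grm2 in striatum they were -0.012 (control block), -0.12 (low-control arrays) and -0.044 to 0.18 (single arrays). For Grm7 they were -0.061 (control block), -0.20 (high-control arrays) and -0.12 to 0.27 (single arrays) in striatum, -0.20 to 0.051 (single arrays) in prefrontal cortex, and -0.027 (control block), -0.033 (low-control arrays), -0.0084 (probe set mean), -0.040 (light drinkers) and -0.055 to 0.11 (single arrays) between regions. Its class effects differed by -0.074 (high-control arrays) and -0.031 to 0.35 (single arrays). For Grm8 they were 0.0036 (low-control arrays) in striatum, 0.062 (high-control arrays) and -0.079 to 0.037 (single arrays) in prefrontal cortex, and 0.077 (low-control arrays), 0.029 (array weights) and -0.083 to 0.033 (single arrays) for the class effects between regions. For Grm4 those differed by -0.018 (high-control arrays) and -0.033 to 0.21 (single arrays). The causes were not tested. Grm4, Grm8 and 2 Grm7 probe sets had means under 4, so the filter left them out, and signal over background limits what they can show. Where a group was left with 1 array, that array was assumed to vary like the others.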
